A study of Mus musculus with 3 samples.

Results

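The regions described here are H3K27me3 ChIP-seq peaks of mouse kidney that lie at the ends of long noncoding RNA (lncRNA) genes and away from those of protein-coding genes. A peak was taken when it lay on chromosomes 1 to 19, within 2 kb of either end of a gene of the lncRNA biotype and more than 2 kb from both ends of every protein-coding gene. This gave 1378 peaks of 25686, of which 941 (of 17612) were ADA-treated and 437 (of 8074) untreated. The ADA-treated group was kidney of C57BL/6 mice labelled ADA-treated, and the untreated group was kidney of C57BL/6 mice labelled untreated. Each group was 1 ChIP library made with the same antibody, and the 3 samples included 1 input. The agent is spelled ADA in the labels, and neither its dose and duration nor the age of the mice or how many were pooled is stated in the sources at hand. Podocyte SAHH mutants, which the title lists as pod-SAHH-/- mice, were not analysed here. The libraries came from whole kidney, so more cells with the mark and more of the mark per cell cannot be told apart, and peak lists hold no expression with which to check the tissue.

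H3K27me3 is trimethylation of lysine 27 of histone H3. The Polycomb repressive complex PRC2 places it, and in mammals it gathers at CpG-rich starts of silent or lowly expressed genes. lncRNA genes are transcribed like coding genes but yield no known protein. Some act on their neighbours in cis, some are hosts from which microRNAs or small nucleolar RNAs (snoRNAs) are cut, and some scaffold nuclear bodies.

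ChIP fragments numbered 20602041 for ADA-treated and 18849785 for untreated kidney (ratio 1.09). The signal of a peak is its pileup, the number of fragments over a base averaged over the peak, as the authors' caller gave it. Both lists held no pileup under 10, and the background set by the caller was 3.24 fragments in both. An lncRNA gene without a peak is therefore below that level and not shown to lack the mark. With 1 library per group there is no replicate check, no test between groups was run, and the 95% intervals below are exact (Clopper-Pearson) and cover counting error only. One member stood apart. The peak at the 3′ end of AY036118 (chr17:39843005-39848841 in the ADA-treated list), which covers the ribosomal RNA pseudogene Rn18s-rs5, reached a pileup of 1334.87 with ADA treatment and 677.29 without. Without it the lists held 940 and 436 such peaks, with highest pileups of 26.84 and 21.29.

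The starts of 4 lncRNA genes whose whole start window lay inside a peak of both lists are shown to make the sequence under the shared peaks visible. A start window runs from 250 bases before to 50 bases after an annotated start, from RefSeq (GRCm38.p6), 5′ to 3′ along the gene, and capitals mark each CG dinucleotide (CpG), which reads the same on both strands. Chaserr acts in cis on its neighbour Chd2, a chromatin remodeler, in mouse (chr7:73558346-73558645, minus strand, 30 CpG). Mirc35hg is the host of the miR-183, miR-96 and miR-182 cluster (chr6:30174076-30174375, minus strand, 35 CpG). Tunar is a neural and stem cell lncRNA (chr12:105336743-105337042, plus strand, 30 CpG). Dleu2 is the host of miR-15a and miR-16-1 and was chosen after its values were seen (chr14:61682324-61682623, minus strand, 29 CpG). These 4 do not stand for all start windows that peaks of both lists overlapped. The window of Mir22hg had 12 CpG and that of another start of Tunar 11, and neither lay wholly inside both peaks.
Chaserr: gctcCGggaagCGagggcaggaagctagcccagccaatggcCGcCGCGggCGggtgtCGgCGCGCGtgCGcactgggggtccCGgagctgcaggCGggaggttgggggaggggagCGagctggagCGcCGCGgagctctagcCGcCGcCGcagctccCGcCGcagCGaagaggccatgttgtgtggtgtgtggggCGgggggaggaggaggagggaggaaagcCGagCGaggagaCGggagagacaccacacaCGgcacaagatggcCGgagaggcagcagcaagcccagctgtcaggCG
Mirc35hg: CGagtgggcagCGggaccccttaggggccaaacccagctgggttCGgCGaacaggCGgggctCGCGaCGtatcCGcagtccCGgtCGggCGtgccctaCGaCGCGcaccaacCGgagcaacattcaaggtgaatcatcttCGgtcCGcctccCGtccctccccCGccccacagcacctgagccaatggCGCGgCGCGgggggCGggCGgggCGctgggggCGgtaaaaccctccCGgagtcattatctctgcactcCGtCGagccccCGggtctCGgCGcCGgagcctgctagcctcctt
Tunar: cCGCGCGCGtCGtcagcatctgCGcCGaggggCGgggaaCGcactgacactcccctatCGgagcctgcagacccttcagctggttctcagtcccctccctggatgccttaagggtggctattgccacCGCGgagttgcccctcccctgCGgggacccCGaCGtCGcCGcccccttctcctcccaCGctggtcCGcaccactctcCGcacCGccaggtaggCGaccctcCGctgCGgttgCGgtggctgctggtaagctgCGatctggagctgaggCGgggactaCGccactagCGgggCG
Dleu2: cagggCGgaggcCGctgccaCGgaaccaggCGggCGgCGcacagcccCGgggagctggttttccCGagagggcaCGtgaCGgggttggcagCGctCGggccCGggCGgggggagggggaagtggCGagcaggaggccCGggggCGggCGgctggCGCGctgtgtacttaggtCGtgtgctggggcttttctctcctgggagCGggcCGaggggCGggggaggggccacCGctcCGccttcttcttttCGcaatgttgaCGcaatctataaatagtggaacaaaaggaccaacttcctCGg

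Also shown are 3 windows inside a peak of the ADA-treated list alone, which do not stand for that class. Other named windows of it held more CpG: Rab10os (39), Cistr (38), Mir9-3hg (35), Sox6os (26), Hk1os (21) and Sox1ot (20). Rbakdn (11) and Itpr3os (4) lay within the range of those shown. Dancr, a broadly expressed snoRNA host (chr5:74092810-74093109, plus strand), had 18 CpG. Kcnq1ot1, the antisense RNA that silences neighbouring genes on the paternal chromosome of its imprinted cluster (chr7:143296498-143296797, minus strand), had 9 CpG. Lncppara, the host of let-7c-2 and let-7b (chr15:85703523-85703822, plus strand), had 4 CpG.
Dancr: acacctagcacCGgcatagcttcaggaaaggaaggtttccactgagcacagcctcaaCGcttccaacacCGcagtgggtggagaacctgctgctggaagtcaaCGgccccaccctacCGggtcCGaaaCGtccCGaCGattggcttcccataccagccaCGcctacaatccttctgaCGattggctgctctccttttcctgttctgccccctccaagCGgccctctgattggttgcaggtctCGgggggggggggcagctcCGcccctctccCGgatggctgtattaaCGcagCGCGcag
Kcnq1ot1: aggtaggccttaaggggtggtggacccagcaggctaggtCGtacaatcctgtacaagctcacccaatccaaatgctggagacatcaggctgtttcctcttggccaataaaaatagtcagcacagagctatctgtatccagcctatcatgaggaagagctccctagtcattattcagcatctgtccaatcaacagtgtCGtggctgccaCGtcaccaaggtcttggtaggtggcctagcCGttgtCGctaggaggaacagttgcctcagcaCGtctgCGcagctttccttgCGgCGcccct
Lncppara: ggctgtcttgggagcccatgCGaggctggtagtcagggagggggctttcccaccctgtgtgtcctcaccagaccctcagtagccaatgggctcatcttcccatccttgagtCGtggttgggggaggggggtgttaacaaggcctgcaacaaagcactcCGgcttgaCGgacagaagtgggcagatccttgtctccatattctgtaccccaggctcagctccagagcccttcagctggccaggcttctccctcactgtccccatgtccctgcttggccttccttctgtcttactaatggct

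Zfp783, listed as an lncRNA, had a start window of 26 CpG inside a peak of the untreated list alone (chr6:47942925-47943224, plus strand).
Zfp783: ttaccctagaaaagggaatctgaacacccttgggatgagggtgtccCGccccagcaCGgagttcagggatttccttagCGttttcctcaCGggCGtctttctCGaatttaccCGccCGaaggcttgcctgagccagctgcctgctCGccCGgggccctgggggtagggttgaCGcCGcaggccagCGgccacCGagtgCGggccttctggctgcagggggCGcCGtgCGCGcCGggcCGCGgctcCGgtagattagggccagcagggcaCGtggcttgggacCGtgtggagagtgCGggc

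Peaks at lncRNA gene ends were more numerous in the ADA-treated list, 941 against 437 in the untreated list, a ratio of 2.15. The ratio was 2.20 for peaks within 2 kb of a protein-coding gene end (9809 and 4450), 2.14 for peaks more than 2 kb from both kinds of end (6794 and 3174), and 2.18 for all peaks on these chromosomes. The peaks at lncRNA ends thus made up a like part of both lists, 5.36% of the ADA-treated and 5.42% of the untreated peaks. The direction of the count turned when the ADA-treated list was cut to its strongest 8061 peaks by caller p, as many as the untreated list holds. Of these, 317 lay at lncRNA ends, against 437 in the untreated list. The cut removed weak peaks from the ADA-treated list only, so it is not a like comparison. ADA-treated members had a lower median pileup than all peaks of that list, 11.12 against 11.61. It was higher than that of peaks near neither kind of end, 10.81. Among stronger peaks the gap was wider, with 287 ADA-treated and 36 untreated members at a pileup of at least 12. Over all peaks, 43.0% of the ADA-treated and 13.9% of the untreated list reached that pileup, and the corresponding shares of the members were 30.5% and 8.24%.

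Members had lower median pileups than peaks at protein-coding ends in both lists. ADA-treated members had a median pileup of 11.12 (quartiles 10.39 and 12.36) and untreated members one of 10.48 (quartiles 10.11 and 11.16). Peaks at protein-coding ends had medians of 12.61 and 10.95, and peaks near neither kind of end 10.81 and 10.49. Median lengths were 748 bp in the ADA-treated and 761 bp in the untreated list, against 851 and 730 bp at coding ends and 693 and 696 bp near neither. The members covered 0.927 Mb and 0.390 Mb. At the lowest listed pileup of 10 stood 92 ADA-treated and 65 untreated members. Just inside the 2 kb limit, from 1501 to 2000 bp of an lncRNA end, lay 112 ADA-treated and 54 untreated peaks with median pileups of 10.61 and 10.38. Just outside, from 2001 to 2500 bp, lay 117 and 60 with medians of 10.82 and 10.48. On the protein-coding side of the rule, 42 and 21 members lay 2001 to 2500 bp from a coding end, and 50 and 23 peaks at lncRNA ends were set aside because a coding end lay 1501 to 2000 bp away.

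The rule set aside most peaks that touch lncRNA ends. Of 2450 ADA-treated and 1192 untreated peaks within 2 kb of an lncRNA end, 1509 and 755 were also within 2 kb of a protein-coding end. Even so, 443 of the ADA-treated members (47.1%) and 217 of the untreated members (49.7%) lay in the body of a protein-coding gene. Within 2 kb of an annotated start inside such a gene lay 126 ADA-treated (13.4%) and 72 untreated members (16.5%). Signal at those members cannot be assigned to the lncRNA rather than to the coding gene.

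A peak was called shared when a peak of the other list overlapped it by at least 1 bp. Of the ADA-treated members, 194 of 941 were shared (20.6%, interval 18.1 to 23.3), against 27% of all ADA-treated peaks. Of the untreated members, 195 of 437 were shared (44.6%, interval 39.9 to 49.4), against 59.0% of all untreated peaks. Peaks at protein-coding ends were shared more often, 37.3% (36.3 to 38.3) of the ADA-treated and 81.1% (79.9 to 82.2) of the untreated ones. Peaks near neither kind of end were shared less often, 13.1% (12.33 to 13.96) and 30.2% (28.6 to 31.8). In both lists the members stood between the other classes, with intervals that did not overlap. This did not hold for members outside coding genes, of which 15.9% (12.8 to 19.4) and 34.1% (27.9 to 40.8) were shared. Their intervals overlapped those of peaks near neither kind of end, a class not divided in this way. Of members inside coding genes, 26.0% (21.9 to 30.3) and 55.3% (48.4 to 62.0) were shared.

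**Figure D1:**
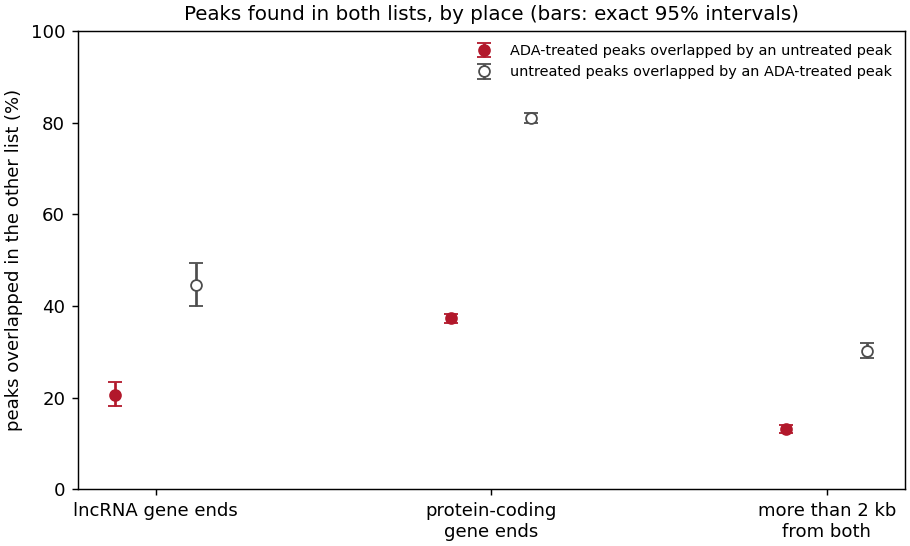
Share of peaks overlapped by at least 1 bp by a peak of the other list (y axis, percent), for peaks at lncRNA ends, at protein-coding ends and more than 2 kb from both (x axis), with filled points for the ADA-treated and open points for the untreated list and bars for exact 95% intervals. At lncRNA ends 20.6% of ADA-treated and 44.6% of untreated peaks were shared, between the values of the other 2 classes.

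Pileup moved with sharing. Shared members had a median pileup of 12.83 in the ADA-treated and 10.74 in the untreated list. Among untreated peaks of pileup 10 to 10.5, 32.1% of members and 69.0% of peaks at coding ends were shared, and at 12 to 14 24 of 32 members and 92.7% of the others were shared. Among ADA-treated peaks, members and peaks at coding ends were shared in 3.94% and 11.1% of cases at 10 to 10.5, 11.6% and 19.01% at 10.5 to 11, and 20.2% and 28.2% at 11 to 12. At 12 to 14 the shares were 30.9% and 36.2%, and at 14 to 40 they were 60.4% and 58.5%. Members were thus shared less often than peaks at coding ends in every range below a pileup of 14, in both lists. Against peaks near neither kind of end, the ADA-treated members' share was lower at 10 to 10.5, 3.94% against 5.59%, with overlapping intervals. It was higher in every range above that, at 14 to 40 with 60.4% against 48.02%. The untreated members' share was higher in every range, from 32.1% against 21.5% at 10 to 10.5, though the range of 14 to 40 held only 3 members. The part of pileup in the difference between classes was not otherwise tested.

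Members on an lncRNA start were shared more often than the rest. A start window was overlapped by 275 ADA-treated members (29.2%), of which 32.0% (26.5 to 37.9) were shared, against 15.9% (13.2 to 18.9) of the other 666. In the untreated list it was overlapped by 112 members (25.6%), of which 64.3% (54.7 to 73.1) were shared, against 37.8% (32.6 to 43.4) of the other 325. Members near an inner coding start were also shared more often, 44.4% of the ADA-treated and 84.7% of the untreated ones, against 16.9% and 36.7% of members that were not. Away from inner coding starts, ADA-treated members on an lncRNA start window were shared in 26.7% of cases, and those on none in 13.6%.

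The peaks gathered at the 5′ ends of the lncRNA genes. A strand was known for 808 pairs of an ADA-treated member and an lncRNA gene and for 366 untreated pairs. The 5′ end was the nearer one in 65.6% (62.2 to 68.9) of the ADA-treated and 63.7% (58.5 to 68.6) of the untreated pairs. Where the peak contained an end, that was the 5′ end in 225 of 264 ADA-treated pairs (85.2%, 80.4 to 89.3) and 90 of 114 untreated pairs (78.9%, 70.3 to 86.0). Where the peak lay beside an end, it was the 5′ end in 56.1% and 56.7%. Pairs share peaks and genes, since 63 ADA-treated and 30 untreated members lay at several lncRNA genes.

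**Figure D2:**
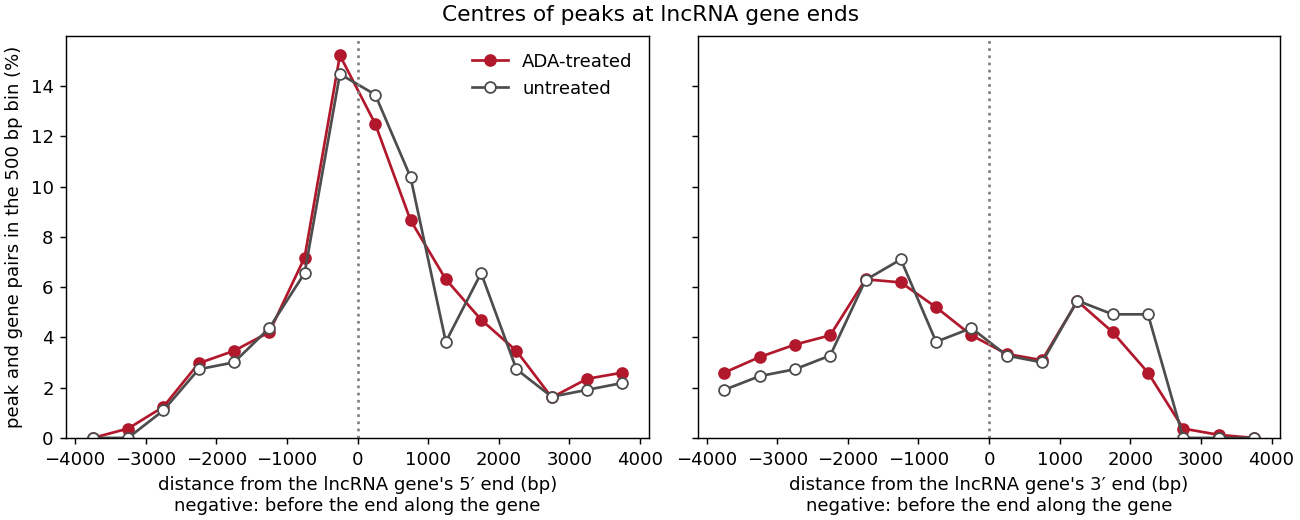
Distance of the peak centre from the lncRNA gene's 5′ end (left) or 3′ end (right) in bp (x axis) against the share of peak and gene pairs per 500 bp bin (y axis, percent), with filled points for the ADA-treated and open points for the untreated list. The 500 bp before the 5′ end held more pairs than any other bin, 15.2% of the ADA-treated and 14.5% of the untreated ones. The lines of the lists run close together.

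In terms of genes, 924 of 12408 lncRNA genes (7.45%, 6.99 to 7.92) had a member peak in the ADA-treated list and 453 (3.65%, 3.328 to 3.996) in the untreated list. Of the protein-coding genes, 49.0% had an ADA-treated and 24.1% an untreated peak within 2 kb of an end, under a rule with no exclusion. The lists marked 241 lncRNA genes in common, 683 in the ADA-treated list alone and 212 in the untreated list alone. Thus 26.1% (23.3 to 29.0) of the ADA-marked genes were also marked in the untreated list, and 53.2% (48.5 to 57.9) of the untreated-marked genes were also marked in the ADA-treated list. For 35 of the genes of the ADA-treated list alone and 32 of the untreated list alone, the other list had a peak at the gene that the coding exclusion removed. Most marked genes carry provisional symbols such as those with Gm or Rik. Of the 395 lncRNA genes with a name, 55 were marked in the ADA-treated and 31 in the untreated list, 20 of them in both, 35 in the ADA-treated list alone and 11 in the untreated list alone.

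Where an untreated peak, member or not, overlapped an ADA-treated member, the ADA-treated pileup was higher in 165 of 194 pairs (85.1%, 79.2 to 89.8). Over all overlapping pairs the share was 86.3%. The untreated pileup was higher in 28 pairs. Median pileups over the pairs were 12.83 in the ADA-treated and 10.72 in the untreated list. The median ratio was 1.16 (quartiles 1.06 and 1.36), against 1.24 at protein-coding ends and 1.21 over all pairs. The ADA-treated pileup was thus the higher one about as often at lncRNA ends as over the whole lists.

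CpG number ordered the lncRNA starts in both lists. Start windows under member peaks of both lists had a median of 25 CpG and 68.0% GC (70 windows), those under an ADA-treated member alone 12 CpG and 61.0% GC (250 windows), and those under an untreated member alone 8 CpG and 56.7% GC (55 windows). The 8944 windows away from coding ends with no peak had a median of 3 CpG and 47.0% GC. Over all lncRNA genes the median was 4 CpG, and 763 of 11311 windows held none. Windows that were CpG-rich, with GC above 50% and an observed over expected CpG ratio above 0.6, made up 72.9% of the first class, 39.2% of the second, 32.7% of the third and 2.56% of the windows with no peak.

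Of the 224 lncRNA starts away from coding ends with at least 20 CpG, 131 (58.5%) had an ADA-treated member peak and 58 (25.9%) an untreated one, 44 of them both. With 10 to 19 CpG the shares were 9.93% and 3.31% of 755, with 5 to 9 CpG 2.77% and 0.963% of 2493, and with 0 to 4 CpG 0.764% and 0.306% of 5889. Protein-coding starts with at least 20 CpG had a peak in 78.1% and 32.3% of 7450 cases, and those with 10 to 19 CpG in 39.9% and 11.7%. In each range of CpG number the share was lower at lncRNA starts than at protein-coding starts. The counts are unlike, since only member peaks counted at lncRNA starts. Any peak counted at protein-coding starts, which were taken with no exclusion, so the lncRNA shares are understated beside them. GC content moved with CpG number: the 30 lncRNA windows with at least 20 CpG but 50 to 60% GC had an ADA-treated member peak in 3 cases and an untreated one in 2. At 60 to 70% GC, windows of 0 to 9 CpG were marked in 26.6% and 5.32% of 94 cases, and windows of at least 20 CpG in 56.3% and 24.1% of 112. The part of GC content in these shares was not tested.

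**Figure D3:**
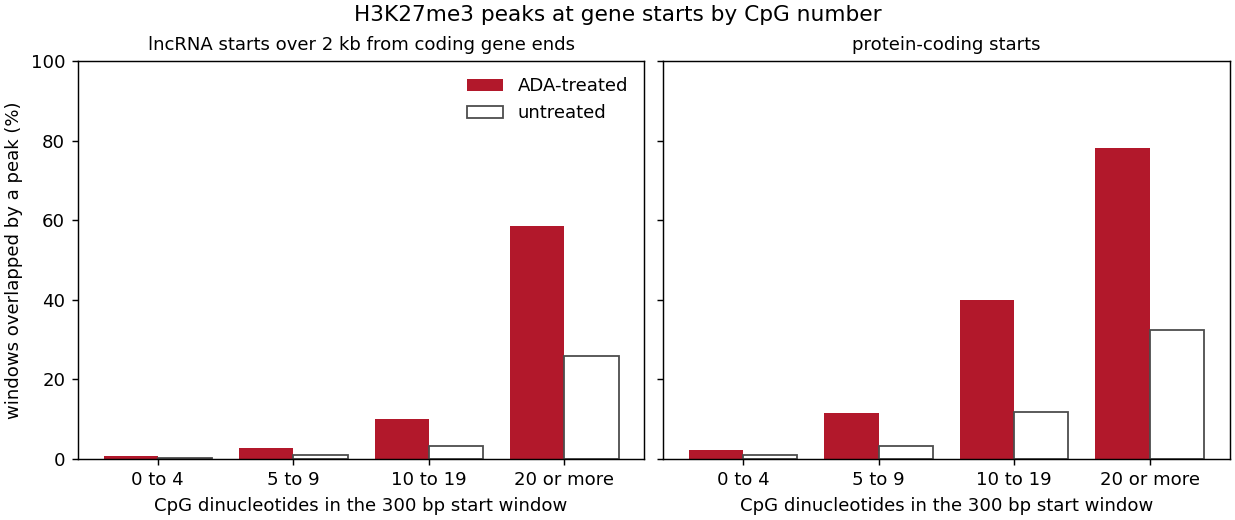
CpG dinucleotides in the 300 bp start window (x axis) against the share of windows overlapped by a peak (y axis, percent), for lncRNA starts more than 2 kb from coding gene ends (left) and protein-coding starts (right), with filled bars for the ADA-treated and open bars for the untreated list. The left bars count member peaks only and the right bars any peak. Among lncRNA starts with 20 or more CpG, 58.5% had an ADA-treated and 25.9% an untreated member peak, and below 10 CpG few had either.

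Among lncRNAs known to act on neighbouring genes, Chaserr had a peak over its start in both lists, with a pileup of 14.95 in the ADA-treated and 11.90 in the untreated list. Nkx2-2os, opposite the neural and endocrine regulator Nkx2-2, had the reverse order, 10.56 in the ADA-treated and 11.41 in the untreated list, at peaks within Nkx2-2 itself. At Six3os1, opposite the eye and forebrain regulator Six3, the pileups were 11.22 and 10.18 but the peaks lay apart. Chaserr's peaks stood above the upper quartile of the members in both lists, as did the untreated peak at Nkx2-2os. The ADA-treated peak at Nkx2-2os and the untreated peak at Six3os1 lay below their lists' medians of 11.12 and 10.48. Zeb2os, opposite the transcription repressor Zeb2, had 13.89 in the ADA-treated and 10.10 in the untreated list, at peaks that also lay near an inner start of Zeb2. Of 31 lncRNAs beside developmental regulators, 5 were marked in the ADA-treated and 3 in the untreated list. The 3 were among the 5, and the others were Sox1ot (10.40) and Bvht, a mouse cardiac lineage lncRNA (10.38). These counts stand beside 7.45% and 3.65% of all lncRNA genes and 55 and 31 of the 395 with a name. A further 17 of the 31, among them Fendrr, Hottip and Hotairm1, had peaks that the coding exclusion set aside.

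Hosts of microRNAs included one of the strongest named ADA-treated peaks, at Mir17hg. Of 14 genes named as such hosts, 5 were marked in the ADA-treated and 2 in the untreated list (35.7% and 14.3%), and 9 had no peak near an end. These shares stand beside 7.45% and 3.65% of all lncRNA genes and 55 and 31 of the 395 with a name. For Mirc35hg, Mir22hg, Dleu2, Mir17hg and Lncppara, whose peaks are described next, 1 mature arm of each microRNA in the RefSeq table (GRCm38.p6) is shown with its seed (bases 2 to 8) in capitals.
mmu-miR-183-5p: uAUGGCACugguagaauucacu
mmu-miR-96-5p: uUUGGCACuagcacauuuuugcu
mmu-miR-182-5p: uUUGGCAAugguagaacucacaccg
mmu-miR-22-3p: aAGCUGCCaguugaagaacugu
mmu-miR-15a-5p: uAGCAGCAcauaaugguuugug
mmu-miR-16-5p: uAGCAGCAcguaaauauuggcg
mmu-miR-92a-3p: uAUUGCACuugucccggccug
mmu-let-7c-5p: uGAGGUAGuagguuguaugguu
mmu-let-7b-5p: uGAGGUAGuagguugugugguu

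Seeds were shared by miR-15a and miR-16 and by both let-7 members, while those of miR-183, miR-96 and miR-182 differed. Mirc35hg, from which the last 3 are cut, had a pileup of 13.67 in the ADA-treated and 10.86 in the untreated list. Mir22hg, the host of the broadly expressed miR-22, had 13.90 in the ADA-treated and 10.39 in the untreated list. Dleu2 had 16.48 in the ADA-treated and 10.23 in the untreated list. At these 3 hosts the peaks contained the 5′ end in both lists and the ADA-treated pileup was the higher one. Mir17hg, the host of the growth-promoting cluster that includes miR-92a, had a pileup of 19.72 in the ADA-treated list, 1892 bp before its start. An untreated peak of 11.15 overlapped it but lay just beyond 2 kb, so this gene is marked in the ADA-treated list alone by the distance limit. Mir9-3hg (12.24) and Mir1a-1hg (10.45), the host of a muscle microRNA, were marked in the ADA-treated list with no untreated peak near an end. Lncppara had 13.74 in the ADA-treated list, at a peak over its start, and no untreated peak near an end.

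Of 21 snoRNA host genes, 5 were marked in the ADA-treated and 2 in the untreated list (23.8% and 9.52%). These shares stand beside 7.45% and 3.65% of all lncRNA genes and 55 and 31 of the 395 with a name. Snhg15 had a pileup of 12.62 in the ADA-treated and 10.07 in the untreated list. Snhg20, whose peaks covered the microRNA gene Mir6516, had 10 in the ADA-treated and 10.52 in the untreated list, both near the lowest listed value. Snhg5 (13.95), Dancr (11.62) and Snhg7os (10.61) had ADA-treated peaks and no untreated member peak. A further 6 hosts had peaks that the coding exclusion set aside. Among these Gas5, a growth arrest lncRNA, had 18.90 in the ADA-treated and 11.11 in the untreated list.

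Nuclear and broadly expressed lncRNAs were represented by their best known members. Neat1, the scaffold of paraspeckles, had nearly equal pileups, 11.72 in the ADA-treated and 11.62 in the untreated list, at overlapping peaks that contained one gene end. Miat had 10.92 in the ADA-treated and 10.45 in the untreated list. Malat1, an abundant RNA of nuclear speckles, had 14.51 in the ADA-treated list, 563 bp before its 5′ end, and no untreated peak near an end. Of the 12 in the gene table, 5 were marked in the ADA-treated and 2 in the untreated list (41.7% and 16.7%). These shares stand beside 7.45% and 3.65% of all lncRNA genes and 55 and 31 of the 395 with a name. Of the 12, 4 more had peaks set aside by the coding exclusion, and Norad, Oip5os1 and Pvt1 had no peak near an end.

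Of 10 imprinted lncRNAs, 3 had ADA-treated and 0 had untreated member peaks. These counts stand beside 7.45% and 3.65% of all lncRNA genes and 55 and 31 of the 395 with a name. H19, a maternally expressed growth-restraining RNA, had a pileup of 13.03, at a peak 1933 bp from its lower-coordinate end and so just within the limit. Kcnq1ot1 had 11.13 at a peak over its start. Dio3os, opposite a thyroid hormone deiodinase gene, had 10.13, but the coding exclusion set aside peaks nearer Dio3 of 16.18 in the ADA-treated and 12.48 in the untreated list, so the mark was found there in both. Igf2os, at the imprinted growth factor gene Igf2, had a 6500 bp ADA-treated peak of 12.82 that covered Mir483, overlapped by an untreated peak of 10.53. Airn, Meg3, Mirg, Nctc1, Peg13, Rian and Snhg14 had no peak near an end in either list.

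Opposite-strand and overlapping transcripts, picked by the last letters of their symbols, formed the largest group. Of 219 such genes, 26 were marked in the ADA-treated and 13 in the untreated list, 6 in both. These shares, 11.9% and 5.94%, stand beside 7.45% and 3.65% of all lncRNA genes and 55 and 31 of the 395 with a name. A further 66 had a peak that the coding exclusion set aside and no member peak. Prkag2os1, opposite the gene of a subunit of the energy sensor AMPK, had 15.31 in the ADA-treated and 11.44 in the untreated list, at peaks near an inner start of Prkag2. Zfp652os had 15.30 in the ADA-treated and 10.89 in the untreated list. Ttc39aos1 had 11.24 in the ADA-treated and 10.19 in the untreated list. The ADA-treated value was the higher one at all 3. Hk1os, within the gene of the glycolytic enzyme hexokinase 1, had 17.47 in the ADA-treated list at a peak over its start, which also lay near an inner start of Hk1, and Zbtb11os1 (14.66) and Rap1gapos (14.45) were likewise near an inner coding start. Galnt6os (13.98) and Hoxb3os (12.81), an lncRNA of the Hoxb cluster, had ADA-treated peaks near their 3′ ends and none of the untreated list. At Hoxb3os the coding exclusion set aside a further ADA-treated peak of 11.71, over its 5′ end.

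The 11 named genes marked in the untreated list alone had pileups of 10 to 11.87, much the range of untreated peaks at named genes marked in both lists, 10.05 to 11.90. The strongest was at Prr33 (11.87), 1985 bp from its 3′ end, followed by Fhad1os2 (11.62). Morrbid, which restrains the death gene Bcl2l11 in mouse myeloid cells, had 10.78 within its gene body. Nphs1os, opposite the gene of nephrin in the podocyte slit diaphragm, had 10.25, at a peak within Nphs1 that also lay near an inner start of that gene. Smkr-ps (10.75) and Zfp783 (10.27) had peaks over their starts. At 3 genes the coding exclusion had set aside an ADA-treated peak, of 15.25 at Dmrta2os, 11.06 at Tomm6os and 13.15 at Vax2os. The untreated member peaks there, of 10.50, 10.42 and 10, lay apart from these and overlapped no ADA-treated peak. Untreated peaks of 10 at Dmrta2os and 10.47 at Vax2os, also set aside, did overlap the ADA-treated ones. The 3 genes thus had a peak near an end in both lists, at Tomm6os in different places. Atxn7l1os2 (10.34) and Dbhos (10) complete the genes named.

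Among p53, growth and stress lncRNAs, 3 of 11 were marked in the ADA-treated and 2 in the untreated list (27.3% and 18.2%). These shares stand beside 7.45% and 3.65% of all lncRNA genes and 55 and 31 of the 395 with a name. Besides Mir22hg, Mir17hg and Morrbid, the marked genes included Lncpint, which p53 induces in mouse. Lncpint had 19.02 in the ADA-treated list at a peak 1444 bp inside its 5′ end and no untreated peak near an end. Over all 20 named genes marked in both lists, the ADA-treated pileup was higher in 18, beside 190 of all 241 lncRNA genes marked in both and 86.3% of all overlapping pairs. Without AY036118 the named pileups ran from 10 to 21.93 in the ADA-treated and from 10.05 to 11.90 in the untreated list, with ratios of 0.93 to 1.97. The highest ratio was at Tbrg3, 21.93 in the ADA-treated and 11.14 in the untreated list, at peaks that lay before its 5′ end and within Tcf20. Rnf227, listed as an lncRNA despite its symbol, had 15.46 in the ADA-treated and 11.71 in the untreated list.

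**Figure D4:**
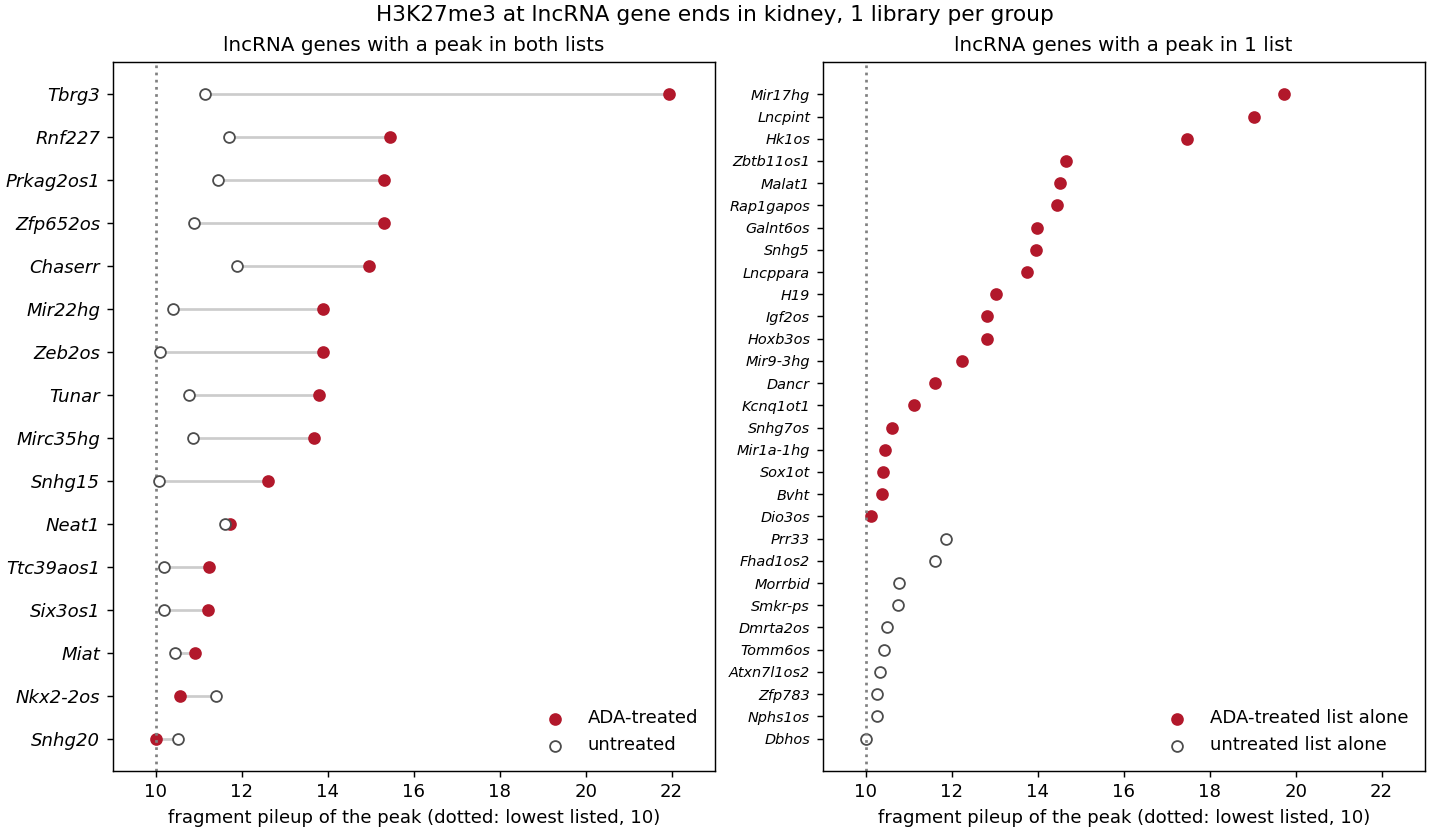
Pileup (x axis, fragments over a base, averaged over the peak) of the strongest peak at each named lncRNA gene (rows), with filled points for the ADA-treated and open points for the untreated list and a dotted line at the lowest listed pileup of 10. Only member peaks are drawn. Left, genes with a member peak in both lists, from Tbrg3 at 21.93 and 11.14 to Snhg20 at 10 and 10.52. Right, genes with a member peak in 1 list, where the ADA-treated ones reach 19.72 and the untreated ones 11.87. At some of these, Mir17hg (19.72) among them, the other list had a peak that was not a member. AY036118 is off the scale, and Vax2os and Dleu2 are not drawn.

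AY036118 aside, the strongest members with provisional symbols had higher pileups than any named gene in both lists. Gm38737 had 26.84 in the ADA-treated and 10.85 in the untreated list, at a peak within Usp42 (chr5:143731565-143733014). A930005G22Rik within Msi1 (21.70), Gm13840 within Pxn (20.17) and Gm33409 within Pdpk1 (19.32) had the strongest ADA-treated peaks with no untreated overlap. In the untreated list the strongest after AY036118 was at LOC115490388 (chr6:3182562-3183530), with 19.61 in the ADA-treated and 21.29 in the untreated list, followed by Gm8273 with 15.83 and 16.96. At both genes the untreated pileup was the higher one. Without an ADA-treated overlap the strongest untreated members were at Gm29913 (13.60), 1700094J05Rik (13.37) and Gm32839 (13.02).

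The members were spread over all 19 autosomes. Chromosome 2, which has the most lncRNA genes (951), held the most in both lists, 104 ADA-treated and 53 untreated. Per 100 lncRNA genes, chromosome 11 was highest in the ADA-treated list at 12.9 and chromosome 17 in the untreated list at 6.14, against 10.9 and 5.57 on chromosome 2. The ratio of ADA-treated to untreated members ran from 1.32 on chromosome 17 to 3.83 on chromosome 3, where 23 stood against 6.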

How the data were processed

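H3K27me3 ChIP-seq was compared between 1 ADA-treated and 1 untreated kidney library, grouped by the treatment and antibody labels. The input entered through the authors' peak calling, where each library had an input of its own by the headers. Peaks were called with MACS 2.1.2 in broad mode, per library, at a p threshold of 0.001, on paired-end fragments with duplicates kept and the local background off, per the file headers. The deposited signal is the fragment pileup averaged over the peak. The deposited fold divides the pileup, raised by 1, by a constant background raised by 1, so input does not correct it locally. The −log10 values of p and q are deposited as the caller gave them. Mean fragment lengths were 293 bp (22100010 input fragments) for the ADA-treated and 321 bp (23891586) for the untreated library, per the file headers. CASAVA 1.4 and mm9 appear in the submitters' processing notes, and the alignment tool was not given in the sources used here. Positions are given as GRCm38, 1-based, since the peaks gather at gene ends of the GRCm38.p6 table.

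Distances, overlaps of at least 1 bp and exact intervals were computed in scipy 1.17.1, pandas 2.3.3 and numpy 2.4.6 under Python 3.11.15, and figures with matplotlib 3.10.9. The overlap step was checked against bedtools 2.31.1 on simulated peaks. Gene ends, biotypes and start windows come from RefSeq tables. Strand was known only for genes with a start window, 9291 of 12408 lncRNA genes and 904 of the 1136 marked. The distance step was tested on simulated data, where it recovered all 300 planted peaks. The members and gene lists were chosen with earlier results of these data known. Named were genes with a name symbol that had the smallest caller p in each class (12 in both lists, 10 in each list alone), up to 6 marked genes of each list and class, and the 3 strongest peaks of each class. Dleu2 and Vax2os were added after their values were seen. Alternatives tried were lncRNA windows of 1 and 5 kb, leaving out peaks that touch coding genes, a pileup of at least 12, lists of equal length and a 50% reciprocal overlap. Leaving out pileups of at least 40 and peaks near any coding start was added after seeing the data.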

Additional observations from a re-analysis of the deposited data

How the results depend on the processing

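The share of untreated members overlapped by an ADA-treated peak, 44.6%, moved with the rule: it was 50.2% with a 1 kb and 38.3% with a 5 kb lncRNA window, 34.1% without peaks touching coding genes, 61.1% at a pileup of at least 12, 30.4% with lists of equal length, 19% under a 50% reciprocal overlap and 36.7% without peaks near any coding start. ADA-treated and untreated members numbered 1461 and 703 with a 5 kb window, 498 and 220 without peaks touching coding genes, and 287 and 36 at a pileup of at least 12. Marked lncRNA genes numbered 1357 and 727, 518 and 235, and 304 and 36 under the same settings. At equal list length 317 ADA-treated peaks and 333 genes stood against 437 and 453 in the untreated list, so the direction turned. That setting cut weak peaks from the ADA-treated list only. In the other settings run, counts stayed higher in the ADA-treated list and within 1.5 times the values reported. At the named genes the pileup was higher in the ADA-treated list at 15 of 17. It was higher at 13 of 14 with a 1 kb window, which dropped Nkx2-2os, where the untreated pileup was the higher one. None changed sign, but only the 1 and 5 kb windows were run for these genes. Those windows mostly returned the same pileups, so a change of sign could hardly appear. No paired analysis was possible because each group had 1 library. A mean background of 3.24 fragments and a lowest listed pileup of 10 limit what weak peaks can show, and library differences cannot be told apart from the treatment.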
